A study of Mus musculus with 6 samples.

Results

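Cytosolic ribosomal protein genes encode the protein parts of the ribosomes that translate messenger RNA in the cytoplasm. They were examined here in the livers of 6 male mice aged 8 weeks, with 1 array per mouse. The genes were chosen by their platform symbols, which had to read Rpl, Rps or Rplp followed by a digit. Symbols marked as pseudogenes (-ps), the kinases of the Rps6k family and Rps19bp symbols were left out. This gave 50 probe sets for 44 genes among 30702 named genes, with 25 genes of the large and 19 of the small subunit. For a gene with several probe sets, only the one of highest average signal was kept. Another 52 probe sets list such a symbol beside the symbols of other genes, so they were not named and are described apart. Rplp1, Rplp2, Rpl3, Rpl5, Rpl10, Rpl23, Rps3, Rps6 and Rps27a are among the genes with no value of their own for that reason or because no probe set carried their symbol alone.

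The HFD-inulin group holds 3 male offspring of mothers treated with inulin, a fermentable plant fibre, and the HFD group holds 3 male offspring of mothers on a high-fat diet (HFD). The labels give all 6 mice as male and of the same age, and all RNA as from liver. The labels name no strain, no diet of the offspring themselves, and no mother or litter. Brothers may therefore share a group, and the p-values cover only the spread among these 6 samples, which may be technical in part. The first group's title names HFD as well as inulin, and whether its mothers also ate the high-fat diet is not stated otherwise.

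A ribosome joins a small subunit, which reads the messenger RNA, to a large subunit, which forms the peptide bonds. Each subunit needs its proteins in nearly equal numbers, and cells adjust the output of the whole gene family together with growth signals. Most of these messenger RNAs start with a C followed by a run of pyrimidines, the terminal oligopyrimidine or TOP motif, through which mTORC1 signalling and the binding protein LARP1 control their translation and stability. In the liver, an organ that secretes large amounts of protein, hepatocytes carry many ribosomes.

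The starts of 6 of these genes are shown first, because a shared start sequence is what the family is known for. RefSeq (GRCm38.p6) gave a window around the start for 35 of the 44 genes. Each line runs from 60 bases before the annotated start to 20 bases from it onward, read 5′ to 3′ along the gene, and capitals mark each run of a C followed by at least 6 of C or T that lies within 25 bases of the start. Runs farther away are in lower case.
Rpl35: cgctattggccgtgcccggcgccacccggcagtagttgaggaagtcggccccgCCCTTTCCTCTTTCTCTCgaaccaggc
Rpl4: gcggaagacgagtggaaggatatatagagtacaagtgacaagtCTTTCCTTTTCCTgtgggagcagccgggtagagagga
Rps18: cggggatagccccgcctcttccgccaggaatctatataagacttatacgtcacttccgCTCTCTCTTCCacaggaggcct
Rps26: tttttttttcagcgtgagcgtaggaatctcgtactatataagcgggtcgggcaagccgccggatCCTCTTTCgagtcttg
Rpl22: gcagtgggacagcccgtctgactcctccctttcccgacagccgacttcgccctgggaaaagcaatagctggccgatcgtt
Rps7: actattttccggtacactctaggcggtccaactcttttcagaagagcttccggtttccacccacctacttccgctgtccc
They lie at chr2:39005112-39005191 (minus strand) for Rpl35, chr9:64173327-64173406 (plus strand) for Rpl4, chr17:33955646-33955725 (minus strand) for Rps18, chr10:128626487-128626566 (minus strand) for Rps26, chr4:152325666-152325745 (plus strand) for Rpl22 and chr12:28635934-28636013 (minus strand) for Rps7. The first 4 hold such a run within 25 bases of the annotated start, and Rpl22 and Rps7 hold none there.

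Core genes below are the 32 members that encode a standard protein of the ribosome, as opposed to 6 paralogues and 6 copies, a grouping made with the values known. Within 25 bases of the start on the transcript strand, the pyrimidine run was found in 14 of the 27 core genes with a window (51.9%), against 22.7% of the 27025 genes with a window. The core of the ETS-family (GABP) binding motif, CCGGAAG on either strand, was found in the window from 250 bases before to 50 after the start in 13 of the 27 (48.1%), against 9.12% of all. AAGATGG, the core of the YY1 motif, was found on either strand of that window in 3 of the 27 and in 6.48% of all. The E-box CACGTG was found in 1 of the 27, Rpl19, and in 7.24% of all. TATAAA between 50 and 15 bases before the start, on the transcript strand, was found in 0 of the 27 and in 2.56% of all. These are matches of letters at the annotated starts, which can lie some bases away from the starts used in liver. The core genes with the pyrimidine run had a median log2 difference (HFD-inulin minus HFD) of 0.29 and the 13 without it 0.32.

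All values are the log2 signals that the authors deposited, and a difference is HFD-inulin minus HFD on that log2 scale. Of the 44 genes, 43 had a higher mean in HFD-inulin, while 43.5% of all 65956 probe sets did. The median difference over the 44 was 0.30, a ratio of 1.23, against -0.02 over all probe sets. No gene passed the test. In limma, with p-values adjusted by Benjamini-Hochberg across the whole table, 0 of the 44 had an adjusted p under 0.05 (smallest 0.902), as did 0 (0%) of all probe sets. With no adjustment, 24 of the 44 were higher with a limma p under 0.05. The shares with such a p were 2.52% of all probe sets and 4.04% of those at or above the median signal. In that fit 0 were lower with such a p, against 2.64% of all probe sets. Ordinary least squares gave 9 with p under 0.05, where 1197 of all 65956 probe sets were higher and 1839 lower with such a p. In 22 of the 44 every HFD-inulin array lay above every HFD array, against 4.32% of all probe sets and 5.66% of those at or above the median signal. In 0 of the 44 did every HFD-inulin array lie below, against 6.02% of all. The members moved together from array to array, with a median pairwise Pearson r of 0.87 over 6 arrays, so these counts are not separate observations. In this limma fit each of the 32 core genes had an adjusted p of 0.902 (Benjamini-Hochberg).

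**Figure D1:**
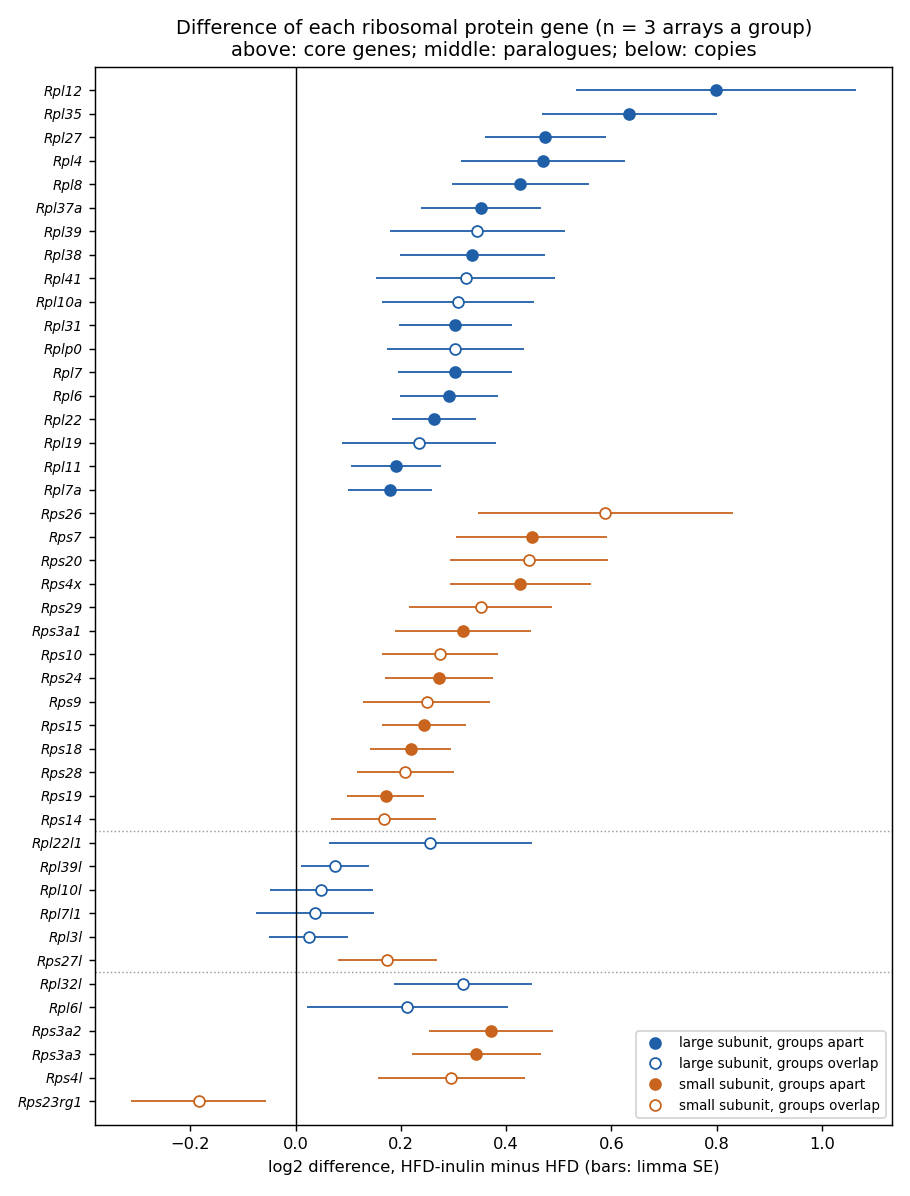
Log2 difference, HFD-inulin minus HFD, with the standard error from limma, for each of the 44 genes (n = 3 arrays a group), in blocks of core genes, paralogues and copies. Filled points mark genes whose groups do not overlap; all 32 core genes lie above 0, and Rps23rg1 is the 1 gene below it.

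The size of the shift differed among the HFD-inulin livers. For each gene the HFD mean was subtracted, and the median over the 44 genes was then taken per array. In arrays 1, 2 and 3 it was 0.30, 0.49 and 0.09 for HFD-inulin, and 0.06, -0.07 and 0.02 for HFD. HFD-inulin arrays 1 and 2 stood well above the HFD arrays, and array 3 only just above HFD array 1. HFD-inulin array 2 was the highest of the 6 arrays for 32 of the 44 genes and HFD-inulin array 1 for 9. HFD array 2 was the lowest for 32. Without HFD-inulin array 3 the median difference was 0.41 and 37 genes had an unadjusted limma p under 0.05, of which 36 were higher, against 5.56% of all probe sets in that fit. Without HFD-inulin array 2 the median was 0.20 and the count 9 (2.05% of all probe sets), and without HFD-inulin array 1 the count was also 9 (1.89%). The count was 4 without HFD array 2 (1.13%) and 14 without HFD array 3 (1.36%).

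By the signal of chromosome Y probe sets with identical profiles, the arrays were divided into 2 sets. The low-signal set holds HFD-inulin 1 and 2 with HFD 1, and the high-signal set holds HFD-inulin 3 with HFD 2 and 3. That signal was 1.91, 1.60 and 3.15 for HFD-inulin (arrays 1, 2, 3) and 1.34, 3.24 and 2.99 for HFD. Genes that check the male label did not follow it. Xist, which is transcribed from the inactive X of females, measured 1.25 to 1.41 over the 6 arrays, near the median probe set, and the chromosome Y genes Kdm5d (1.78 to 2.01), Eif2s3y (2.58 to 3.03) and Uty (1.77 to 2.16) overlapped between the 2 sets. The split crosses the groups. With it as a block the median difference of the ribosomal protein genes was 0.23 and 41 of the 44 were higher. Within the low-signal arrays it was 0.32 with 42 of 44 higher, and within the high-signal arrays 0.12 with 37 of 44 higher. The direction of the median was thus the same in both sets, with a smaller value in the second. The part of this split in the result was not tested further.

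**Figure D2:**
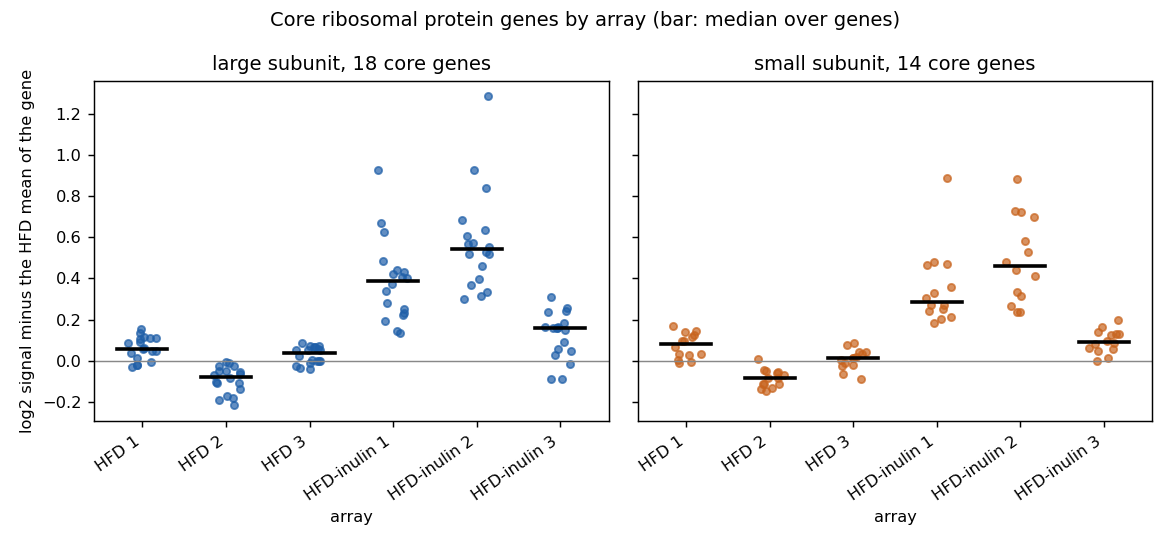
Log2 signal of each core gene minus its HFD mean (vertical axis) in each array (horizontal axis), with the large subunit on the left and the small on the right; black bars are medians over genes. In both panels HFD-inulin arrays 1 and 2 lie highest, and HFD-inulin array 3 has a median of 0.16 (large) and 0.09 (small).

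In the large subunit, 25 of 25 genes had a higher mean in HFD-inulin, with a median difference of 0.30 and a range from 0.03 to 0.80. The groups did not overlap in 13 (52.0%, against 4.32% of all probe sets higher). Among the 18 core genes the median was 0.32, with 11 at an unadjusted limma p under 0.05 (61.1%, against 2.52%).

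Values per gene are given in the order of arrays 1, 2 and 3. Rpl27, a large subunit protein, had the smallest p of all members. Its HFD-inulin arrays measured 6.98, 6.91 and 6.60 and its HFD arrays 6.41, 6.25 and 6.41. The difference was 0.47 (SE 0.11), and the groups did not overlap. Rpl35 sits at the mouth of the tunnel through which the new protein leaves. It measured 7.96, 8.22 and 7.60 in HFD-inulin and 7.41, 7.11 and 7.37 in HFD, a difference of 0.63 (SE 0.17). Its lowest HFD-inulin array was again above its highest HFD array. Both kept probe sets carry the number of a chromosome where the gene does not lie. The second probe set of each, with the number of the gene's own chromosome, gave 0.24 for Rpl27, with overlapping groups, and 0.59 for Rpl35, with groups apart.

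Rpl12, a protein at the base of the stalk that recruits elongation factors, had the largest difference of the 44. It measured 8.37, 8.72 and 7.62 in HFD-inulin and 7.53, 7.26 and 7.53 in HFD, a 1.74-fold ratio (difference 0.80, SE 0.27). The third HFD-inulin array lay just above the highest HFD array, and the other two lay far above. Its probe set too carries another chromosome's number, 10 where the gene lies on 2. Rplp0, the protein on which that stalk is built, measured 7.28, 7.57 and 7.06 in HFD-inulin and 7.06, 6.94 and 7.003 in HFD (difference 0.30). HFD-inulin array 3 was at the level of HFD array 1, so the groups overlapped.

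Around the catalytic centre and the exit tunnel, Rpl8, whose protein reaches close to the site of peptide bond formation, measured 7.14, 7.39 and 6.87 in HFD-inulin and 6.75, 6.68 and 6.68 in HFD. The difference was 0.43 (SE 0.13), with the groups apart. Rpl4, which lines the exit tunnel, measured 8.55, 9.05 and 8.45 against 8.26, 8.16 and 8.22 (difference 0.47, SE 0.16). Its HFD arrays lay close together, and its HFD-inulin array 2 stood above the other two. Rpl39, a small protein of the tunnel wall, had a difference of 0.35, with HFD-inulin array 3 (5.32) below HFD array 1 (5.45). Rpl31, near the tunnel exit, measured 2.57, 2.44 and 2.29 against 2.24, 1.96 and 2.19, a difference of 0.30 on a probe set with a low signal. That probe set carries the number of chromosome 7, where the gene lies on 1.

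Rpl11 joins Rpl5 and the smallest ribosomal RNA in a particle that also binds MDM2, the regulator of p53. It measured 3.22, 3.36 and 3.07 in HFD-inulin and 3.003, 3.02 and 3.05 in HFD, a difference of 0.19 (SE 0.09). The groups were apart by a narrow margin. Rpl22, an RNA-binding protein that T-cell development depends on, measured 4.62, 4.78 and 4.54 against 4.36, 4.36 and 4.43 (difference 0.26, SE 0.08). Rpl6 (0.29), Rpl37a (0.35), Rpl7 (0.30) and Rpl38 (0.34), the last known for its part in the translation of Hox messenger RNAs, were also higher in all 3 HFD-inulin arrays than in any HFD array. The lowest differences among core genes of the large subunit were 0.18 for Rpl7a and 0.19 for Rpl11, followed by 0.23 for Rpl19. Rpl10a (0.31), a protein of the mobile stalk near the exit of transfer RNAs, overlapped between the groups, as did Rpl41 (0.32) and Rpl19.

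In the small subunit, 18 of 19 genes had a higher mean in HFD-inulin, with a median difference of 0.27 and a range from -0.18 to 0.59. The 1 lower gene was the copy Rps23rg1, and all 14 core genes were higher. The groups did not overlap in 9 (47.4%, against 4.32% of all probe sets higher). Among the 14 core genes the median was 0.27 and 10 had an unadjusted limma p under 0.05 (71.4%, against 2.52%).

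Rps4x, encoded on the X chromosome, had the smallest p of the small subunit. It measured 5.39, 5.75 and 5.23 in HFD-inulin and 5.06, 4.97 and 5.05 in HFD, a difference of 0.43 (SE 0.13). Rps7, which is needed to process the small subunit's RNA, measured 7.88, 8.12 and 7.54 against 7.40, 7.35 and 7.44 (difference 0.45, SE 0.14). In both genes the HFD arrays lay close together and the HFD-inulin arrays lay above them. Rps15, a protein of the subunit's head, measured 6.04, 6.11 and 5.90 against 5.80, 5.69 and 5.82 (0.24, SE 0.08), again with the groups apart.

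Rps26 lies where the messenger RNA leaves the small subunit and had the largest difference there. It measured 8.60, 8.60 and 7.71 in HFD-inulin and 7.81, 7.58 and 7.75 in HFD, a difference of 0.59 (SE 0.24). HFD-inulin array 3 was lower than HFD arrays 1 and 3, so the groups overlapped, and the difference came from the other 2 livers. A second probe set of Rps26 gave 0.58 and the third, with a signal under the median probe set, 0.14. Rps20, another protein of the head, measured 5.05, 5.28 and 4.74 in HFD-inulin against 4.75, 4.43 and 4.56 (0.44, SE 0.15), and HFD-inulin array 3 lay just under HFD array 1.

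Rps18, in the head near the peptidyl site, measured 3.07, 3.03 and 2.84 in HFD-inulin and 2.75, 2.77 and 2.76 in HFD (0.22, SE 0.08). Rps24 (0.27) and Rps3a1 (0.32) also had groups apart. Rps19, mutated in Diamond-Blackfan anaemia, measured 3.70, 3.75 and 3.60 against 3.50, 3.44 and 3.59, a difference of 0.17 (SE 0.07). Its groups were apart by a very narrow margin. Rps14, a protein of the subunit's platform, had the lowest difference of the core genes, 0.17 (SE 0.10), with 2.99, 2.98 and 2.75 against 2.89, 2.66 and 2.68. Rps29 (0.35), Rps10 (0.27), Rps9 (0.25) and Rps28 (0.21) were higher on average and overlapped between the groups.

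Large and small subunit genes had nearly equal median shifts in each liver. Over all 44 genes the large minus small difference of the per-array medians was -0.02, 0.07 and 0.02 for HFD-inulin, and -0.03, 0.02 and 0.00 for HFD. Its HFD-inulin mean was 0.02 ± 0.05 (SD, n = 3) and its HFD mean -0.00489 ± 0.03, so the groups overlapped and the change of the balance was within the spread between arrays. With core genes alone, it was 0.10, 0.08 and 0.07 in HFD-inulin and -0.02, 0.00 and 0.02 in HFD. These did not overlap, at 0.08 ± 0.02 (SD, n = 3) against 0.00 ± 0.02, but the limitation to core genes was chosen after the values were seen. With the 52 probe sets that list several genes added, the difference between the subunits' median differences turned from 0.03 to -0.01. The balance thus depended on which probe sets were counted.

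Brighter probe sets showed larger differences. Across the 32 core genes, the mean log2 signal of the probe set and the difference had a Spearman correlation of 0.67, a description over genes that share the same 6 arrays. The 16 brighter core probe sets had a median difference of 0.34 and the 16 dimmer ones 0.27. The signal of a probe set depends on its probes as well as on the messenger RNA, so it does not rank the genes by abundance.

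**Figure D3:**
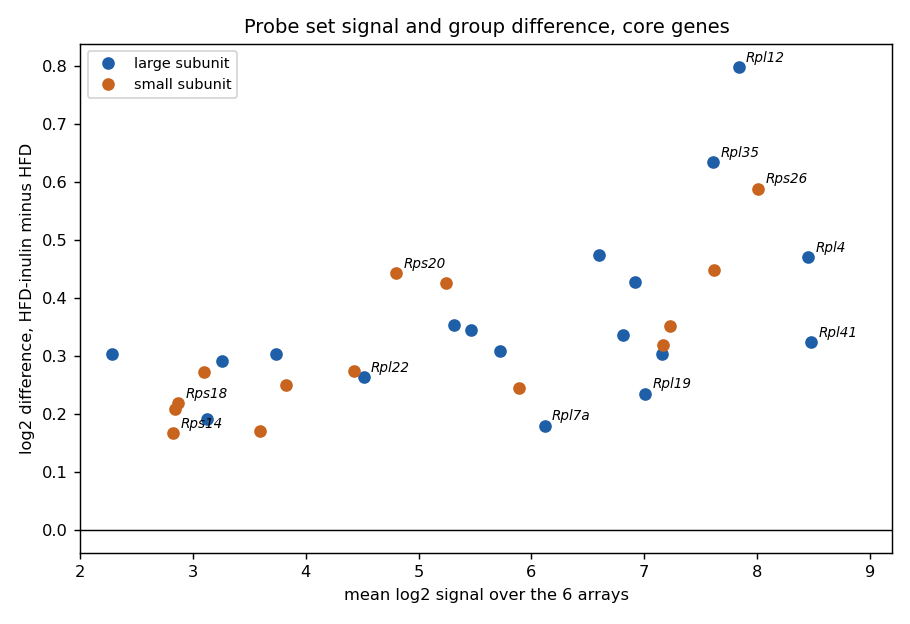
Mean log2 signal over the 6 arrays (horizontal axis) and log2 difference, HFD-inulin minus HFD (vertical axis), for the 32 core genes, coloured by subunit. Rpl12, Rpl35 and Rps26, the genes with the largest differences, have bright probe sets, and the dimmest probe sets lie between 0.17 and 0.30.

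The 6 paralogues, which encode variant ribosomal proteins or relatives of them, had a median difference of 0.06. Of them 0 had an unadjusted limma p under 0.05 and 0 had groups apart. The shares of all probe sets, higher, were 2.52% and 4.32%, so counts of 0 among 6 genes do not set the paralogues apart. Rpl3l, known as the muscle form of Rpl3, measured 1.34, 1.33 and 1.34 in HFD-inulin and 1.25, 1.24 and 1.44 in HFD, close to the median probe set of 1.22 (difference 0.03, adjusted p = 0.972). Rpl10l and Rpl39l, forms found mainly in testis, had differences of 0.05 and 0.08, on probe sets with means of 2.77 and 1.73 in HFD-inulin. Rpl7l1 had a brighter probe set, at 5.77 ± 0.13 (SD, n = 3) against 5.73 ± 0.17, a difference of 0.04. The sign turned with quantile normalization (-0.03 for Rpl7l1), and leaving out single arrays turned that of Rpl3l, Rpl10l and Rpl7l1. Rps27l, a p53 target, was at 0.17, and Rpl22l1 at 0.26 with the widest spread, since its HFD-inulin array 2 (1.81) stood apart from arrays 1 (1.33) and 3 (1.09).

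For 4 pairs both the gene and its relative were measured, and the log2 ratio between them was compared over the 6 arrays. The ratio of Rpl7 to Rpl7l1 was 0.27 higher in HFD-inulin and that of Rpl39 to Rpl39l 0.27 higher. The ratio of Rps4x to Rps4l was 0.13 higher and that of Rpl22 to Rpl22l1 0.01 higher. In exact two-sided permutation tests over the 20 splits, where 0.1 is the smallest possible p, these gave p = 0.2, 0.4, 0.5 and 1, and 0.667, 0.667, 0.667 and 1 after Benjamini-Hochberg adjustment over the 4 pairs. None of the 4 ratios was shown to differ between the groups, and 3 arrays a group could not have reached 0.05.

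**Figure D4:**
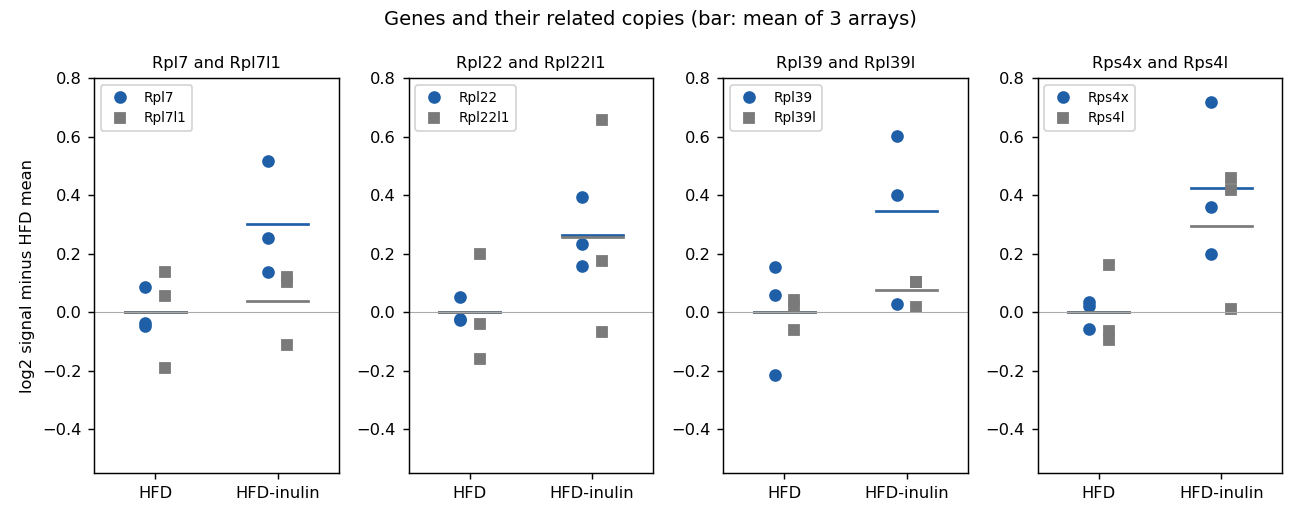
Log2 signal minus the HFD mean (vertical axis) in the 3 HFD and 3 HFD-inulin arrays for 4 genes (circles) and their relatives (squares); bars are group means. Rpl7 and Rpl39 lie higher in HFD-inulin while Rpl7l1 and Rpl39l stay near 0, and Rpl22l1 is as high on average as Rpl22 with a wider spread.

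The 6 copies are the retrogene Rps23rg1, the gene model Rpl32l and 4 loci that RefSeq types as pseudogenes although their symbols carry no such mark, Rpl6l, Rps3a2, Rps3a3 and Rps4l. Rps3a2 (0.37) and Rps3a3 (0.34) resembled Rps3a1 (0.32) and had groups apart. Rpl32l (0.32), Rps4l (0.30) and Rpl6l (0.21) were higher on average and overlapped. Rps23rg1, which was included by its symbol and is not a core gene, was the exception among the 44. It measured 3.48, 3.74 and 3.97 in HFD-inulin and 3.83, 3.98 and 3.93 in HFD, a difference of -0.18 (SE 0.13, limma adjusted p = 0.907). It was lowest in HFD-inulin array 1 and highest among the HFD-inulin arrays in array 3, where the family's median was lowest, and its Pearson r to the mean of the 44 genes was -0.72 over 6 arrays.

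The probe sets left unnamed went the same way. Of the 52 that list a ribosomal protein symbol beside other genes, 52 had a higher HFD-inulin mean. Their median difference was 0.34, and the groups were apart in 34 (65.4%, against 4.32% of all probe sets higher). Of 194 probe sets named for ribosomal protein pseudogenes, 185 were higher, with a median of 0.37 and groups apart in 92 (47.4%). Processed pseudogenes resemble the messenger RNA of their parent genes, and whether probes bind both was not tested. With all -ps symbols left out of the ranking, 5 named genes outside the family had values most like the mean of the 44. They were Gm8213, Gm14541, Gm10036, Gm7117 and 6330549D23Rik. Each is typed as a pseudogene in RefSeq, and their Pearson r rounded to 0.998 for the lowest of them, over 6 arrays.

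Ribosomal proteins with other names were close to the family. Fau, which encodes a small subunit protein fused to a ubiquitin-like domain, measured 8.28, 8.33 and 7.92 in HFD-inulin and 7.88, 7.63 and 7.78 in HFD (difference 0.41, SE 0.13). Rpsa, which encodes a small subunit protein also described as a laminin receptor, measured 6.69, 6.98 and 6.23 against 6.25, 6.13 and 6.08 (0.48, SE 0.18), with HFD-inulin array 3 just under HFD array 1. Mitochondrial ribosomal proteins, which serve a separate ribosome, were higher in 69 of 75 genes, with a median of 0.16, 20 at an unadjusted limma p under 0.05 and groups apart in 20. Those shares, 26.7% each, stand against 2.52% and 4.32% of all probe sets.

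Other messenger RNAs of the TOP class had a median difference of 0.17, with 15 of 18 higher, 3 at an unadjusted limma p under 0.05 (16.7%, against 2.52% of all probe sets) and 0 past the adjusted threshold. They were not of one kind. The elongation factor subunits Eef1d (0.25) and Eef1g (0.50), with Eif3h (0.16), had the smallest p. Nap1l1, a histone chaperone, came next at 0.38. Eef1a1 (-0.04) and Eef2 (-0.04), the central elongation factors, were level between the groups. Eif4b, an initiation factor, was at -0.35 with 6.65, 6.40 and 7.15 in HFD-inulin against 7.10, 7.12 and 7.03, so its HFD-inulin arrays 1 and 2 were low and array 3 was not.

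Of 18 genes that build ribosomes, 17 had a higher HFD-inulin mean. Their median difference was 0.15, with 3 at an unadjusted limma p under 0.05 (16.7%, against 2.52%). Bop1 (0.25) and Wdr12 (0.19), partners in large subunit assembly, and Fbl (0.18), which methylates ribosomal RNA, had the smallest p and groups apart. Nhp2, a protein of the particles that modify ribosomal RNA, was at 0.23. Rrn3, which brings RNA polymerase I to the ribosomal RNA genes, was at -0.07 and Ubtf at 0.05. Of the 9 factors reported at ribosomal protein promoters, 8 had a higher HFD-inulin mean, and the median was 0.07. Among the 9, 0 had an unadjusted limma p under 0.05 (against 2.52% of all probe sets higher). The groups were apart and higher in 2, Cnbp and Gabpb1 (22.2%, against 4.32%). Cnbp (0.17), Myc (0.16), Gabpb1 (0.09) and Gabpa (0.09) had the smallest p among them.

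The mTORC1 and TOP control list had a median of -0.02, with 6 of 13 higher. Rheb, the small GTPase that activates mTORC1, was the 1 member at an unadjusted limma p under 0.05 (7.7%, against 2.52% of all probe sets higher). It measured 5.84, 6.01 and 5.57 in HFD-inulin and 5.48, 5.44 and 5.35 in HFD (difference 0.38, SE 0.12). Eif4e was at 0.29, and Tsc1 and Tsc2, which together restrain Rheb, were both at -0.11, with the groups apart for Tsc1. Mtor (0.05), Rptor (-0.05) and Larp1 (-0.03) lay close to 0. The arrays measure RNA, so the activity of these proteins is not part of the data.

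**Figure D5:**
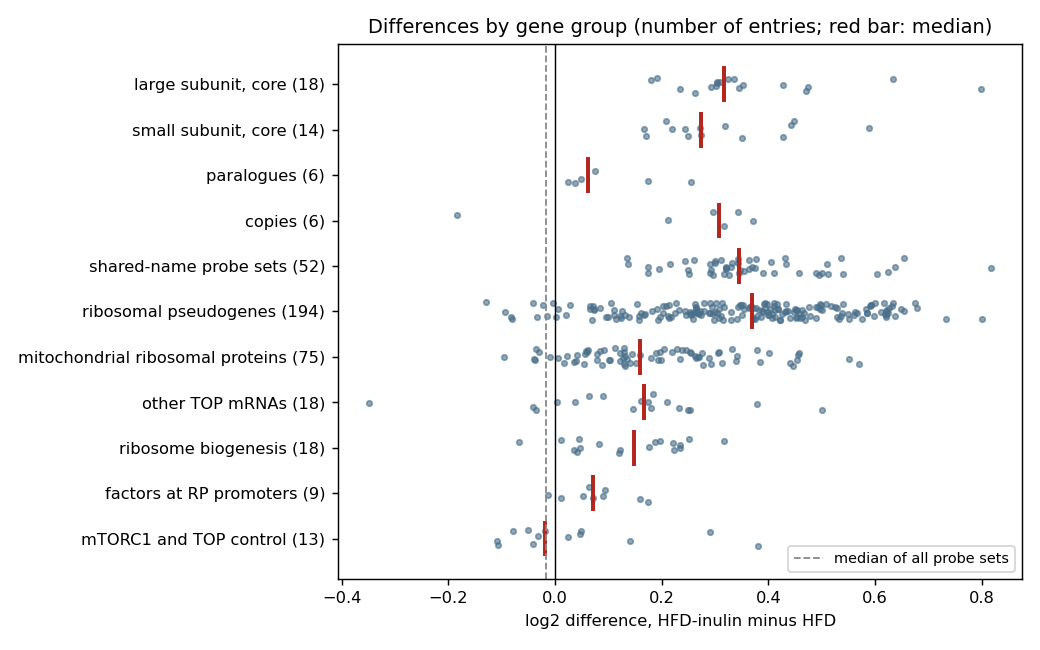
Log2 difference, HFD-inulin minus HFD, of every entry in each gene group (points) with the group median (red bars); the dashed line is the median of all probe sets, -0.02. Core genes, copies, probe sets shared with other genes and ribosomal pseudogenes lie highest, mitochondrial ribosomal proteins, other TOP messenger RNAs and biogenesis genes lie between 0.15 and 0.17 at the median, and mTORC1 control genes lie at the median of all probe sets.

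The arrays read whole liver, where fewer cells of a type and less RNA per cell cannot be told apart. Hepatocyte markers were the brightest list, at a mean of 9.96 to 10.06 in HFD-inulin and 10.18 to 10.24 in HFD, with 5 of 7 lower in HFD-inulin. Among them Hnf4a, a regulator of hepatocyte identity, had a difference of -0.60 with groups apart (limma, Benjamini-Hochberg adjusted p = 0.390). Cps1 had the largest difference of the 7, -0.68, also with groups apart. Its HFD-inulin arrays 1 (9.18) and 2 (9.24) were low, and array 3 lay just under the lowest HFD array (10.03). Ttr (-0.18), Alb, which encodes albumin (-0.10), and Apoa2 (-0.06) were lower with overlapping groups. Fgb (0.17) and Apoa1 (0.14) were higher, also with overlapping groups. Lymphocyte markers (1.23 to 1.33 against 1.31 to 1.45) and proliferation markers (0.94 to 1.07 against 1.02 to 1.19) lay near the median probe set, and 0 of 5 and 1 of 3 were higher in HFD-inulin. Kupffer cell markers measured 5.15 to 5.29 against 5.23 to 5.43 with 2 of 5 higher, and sinusoidal endothelial markers 4.68 to 4.76 against 4.75 to 4.92 with 1 of 5 higher. Stellate cell markers measured 3.32 to 3.61 against 3.44 to 3.57 with 2 of 5 higher, and erythroid markers 3.42 to 3.60 against 3.53 to 3.62 with 0 of 3 higher. Neutrophil markers reached 1.95 in HFD-inulin array 2 and lay between 1.43 and 1.57 in the other 5 arrays, and 3 of 6 were higher. That peak came from S100a8 (2.33) and S100a9 (2.34). In the same array Camp (1.98), Mpo (1.75), Elane (1.32) and Ly6g (1.97) lay within their HFD ranges. Cholangiocyte markers reached 2.62 in HFD-inulin array 2 and lay between 2.08 and 2.25 in the others, and 3 of 4 were higher. There Krt19 (3.04, against 1.82 to 1.93 in HFD) stood out most. Krt7 (2.61) and Epcam (1.78) were also highest there, and Sox9 (3.04) lay below HFD array 3 (3.13). HFD-inulin array 2 was also the highest for most ribosomal protein genes, and the part of these cells in the result was not tested.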

How the data were processed

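Per the labels' protocols, TRIzol was used to extract total liver RNA, which was labelled (biotin) for 1 array per mouse. The authors deposited log2 signals for 65956 probe sets. The submitters' processing notes name Affymetrix Expression Console 1.0. How probes were summarized and background removed, and the genome build, were not given in the sources used. That the scale is log2 was judged from the range of values, and array medians ran from 1.17 to 1.26. No detection calls or scan batches were used, and 3 arrays a group limit the precision.

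Symbols came from GEO's platform annotation, updated through RefSeq (GRCm38.p6). A single gene was found for 31258 probe sets, which left 1492 with several genes and 33206 with none unnamed. A probe set number gives a chromosome, which was another than the gene's for 6 of the 44 kept probe sets. These are the probe sets of Rpl27, Rpl35, Rpl12, Rpl31, Rpl7a and Rpl41. The second probe sets of Rpl7a and Rpl41, numbered on the gene's chromosome, gave differences of 0.17 and 0.30. Over the 38 genes measured on their own chromosome the median difference was 0.28. Their groups were apart and higher in 17 (44.7%, against 4.32% of all probe sets). Promoter windows also came from RefSeq, taking the first listed per gene.

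Groups were compared with limma 3.58.1 (lmFit, eBayes; R 4.3.3) on all probe sets, with no filter and no covariate. Tests were two-sided, p-values were adjusted by Benjamini-Hochberg across the whole table, and the threshold was 0.05. The fit was tested on simulated data. Members, lists and tests were chosen with earlier results of these data known. Genes were named by a rule on p, size, signal and known role, and other members are given by their difference. Mtor, Rptor, Larp1, Eef1a1, Eef2, Eif4b, Rrn3, Ubtf, Xist, Kdm5d, Eif2s3y and Uty fall outside it and were chosen after their values were seen. The same holds for Hnf4a, Alb and the other hepatocyte, neutrophil and cholangiocyte markers given by name.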

Additional observations from a re-analysis of the deposited data

How the results depend on the processing

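The 3 arrays a group and the lack of detection calls limit every value. Over 17 alternative fits of all members, 0 genes passed the adjusted threshold, and the smallest adjusted p of a member ran from 0.079 (without HFD-inulin array 3) to 1. With all arrays, 0 passed at a threshold of 0.1. The median over all members stayed above 0 in each. Leaving out single arrays, it ran from 0.20 to 0.41 (large subunit 0.20 to 0.42, small subunit 0.20 to 0.39), the count with unadjusted p under 0.05 from 4 to 37 (1.13% to 5.56% of all probe sets higher), the count with groups apart from 23 to 39 (7.08% to 11.5% higher), and the large minus small difference from -0.00160 (without HFD-inulin array 2) to 0.0435. Within the low-signal arrays these counts were 12 and 43, of which 41 apart were higher. Within the high-signal arrays they were 2 and 34, of which 32 apart were higher, the medians were 0.12 (all), 0.11 (large) and 0.12 (small), and large minus small was -0.0147. Each set of the split has a group of 1 array, assumed to vary like the others. By unadjusted p, the members' share stood above that of all probe sets in the low-signal arrays and close to it in the high-signal arrays. Those counts rest on that assumption, so no conclusion is drawn from them. With 3 arrays groups are often apart (29.2% and 35.4% of all probe sets higher). Ordinary least squares gave 9 genes with unadjusted p under 0.05, where 1197 of all 65956 probe sets were higher and 1839 lower with such a p. With the 52 probe sets that list several genes, an alternative chosen after seeing the data, large minus small was -0.0116. There 60 of 96 had an unadjusted limma p under 0.05 and 56 of 96 had groups apart. The shares of all probe sets, higher, were 2.52% and 4.32%. Within the high-signal arrays the difference was -0.15 for Rpl10l, -0.00211 for Rpl3l, -0.0655 for Rpl41, -0.0457 for Rpl7l1, 0.0111 for Rps23rg1 and -0.0224 for Rps4l, each a change of sign. Rpl7l1 also turned to -0.0297 after quantile normalization, -0.0349 with the split as a block and -0.0240 within the low-signal arrays, and Rpl10l to -0.00545 with the split as a block. Without single arrays Rpl10l ran from -0.0164 to 0.151, Rpl3l from -0.00995 to 0.0901 and Rpl7l1 from -0.0596 to 0.112. The cause of these changes was not tested. With the replicate number as a block, the count with unadjusted p under 0.05 was 20, against 2.5% of all probe sets higher. Without that block it was 24, against 2.52%, and 0 genes passed the adjusted threshold in either fit. Deviations of same-numbered arrays correlated at 0.26, -0.28 and 0.40 and the labels pair nothing, so the numbers were not read as pairs.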
